A study of Homo sapiens with 15 samples.

Results

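The mRNAs of splicing factors and heterogeneous nuclear ribonucleoproteins (hnRNPs) were followed from cytosolic extract into 4 kinds of pellet. Members were taken by name: protein-coding genes whose symbols start with HNRNP, SRSF, SNRP or SF3, together with U2AF1, U2AF2, TRA2A, TRA2B, PTBP1, SON and SRRM2, without pseudogenes. Of 66 such genes, 61 reached 10 counts or more in 2 or 3 replicates of every one of the 5 conditions and are described here, out of 16612 genes that passed the same filter and 57500 genes in all. The 5 others were HNRNPCL1, HNRNPCL2, HNRNPCL3 and HNRNPCL4, with 0 to 11 counts per library, and U2AF1, with 5 to 32. The coding sequence of U2AF1, which encodes the factor that reads the AG at the end of an intron, is identical over all 720 bases to that of its copy U2AF1L5, which had 41 to 185 counts, so that the level of U2AF1 is uncertain here. Just inside the filter was SRSF12, with 28 to 145 counts.

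The extracts came from U2OS cells, a human osteosarcoma line, given as wild type in the labels, whereas the study's text names the condensates after YFP-G3BP1. Extract was incubated in translation reactions for 2 h with 250 nM dsRNA, which sets off the stress response that represses translation, with 2 µg/ml silvestrol, an inhibitor of the initiation helicase eIF4A, with 1% PEG, a molecular crowder, or untreated (mock), and the condensates were pelleted. Input is extract that was not pelleted, and no incubation time is given for it. In comparisons with input, the 2 h of incubation and the pelleting therefore cannot be told apart. Poly(A) RNA of the 4 pellets and of input was sequenced in 3 biological replicates each, 15 libraries in all, to ask which RNAs the pellets hold relative to input.

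The spliceosome removes introns from pre-mRNA in the nucleus. Its small nuclear ribonucleoproteins (snRNPs) carry a ring of Sm proteins and proteins particular to each snRNP, of which the SF3A and SF3B complexes belong to the U2 snRNP and hold it at the branch point. SR proteins, which carry stretches of alternating arginine and serine, and hnRNPs bind exons and introns and turn splice sites on or off. All of these proteins are made in the cytoplasm from ordinary mRNAs, and it is those mRNAs, not the proteins, that were counted in the pellets.

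The members run from very short to very long reading frames, and 1 short coding sequence and 4 arginine-serine stretches are shown. SF3B5 and SRRM2, the members with the shortest and the longest coding sequence, took opposite places in the pellets. SON was not called with PEG, and SRSF7 and SRSF3 moved in the same directions as SF3B5. Sequences are from GENCODE 29 transcripts on GRCh38, 5′ to 3′ on the coding strand. For SF3B5 (chr6:144095240-144095497, minus strand, 1 coding exon) the whole coding sequence without its stop codon is given, 258 bases, with the start codon in capitals. For SRRM2 (chr16:2762419-2762478, plus strand), SON (chr21:33554815-33554874, plus strand), SRSF7 (chr2:38748593-38748652, minus strand) and SRSF3 (chr6:36601733-36601792, plus strand) the 60 bases of 1 coding exon with the most neighbouring arginine and serine codons are given, with the codons of those pairs in capitals.
SF3B5: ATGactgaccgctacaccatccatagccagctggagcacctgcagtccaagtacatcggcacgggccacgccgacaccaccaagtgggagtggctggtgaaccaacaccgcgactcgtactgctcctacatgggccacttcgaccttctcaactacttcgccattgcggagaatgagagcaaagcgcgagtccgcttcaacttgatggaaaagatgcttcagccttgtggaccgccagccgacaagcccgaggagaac
SRRM2: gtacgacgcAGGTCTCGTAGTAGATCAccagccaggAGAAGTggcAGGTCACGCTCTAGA
SON: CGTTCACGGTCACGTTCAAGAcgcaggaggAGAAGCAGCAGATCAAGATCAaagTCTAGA
SRSF7: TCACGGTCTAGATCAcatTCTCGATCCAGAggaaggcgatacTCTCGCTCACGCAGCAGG
SRSF3: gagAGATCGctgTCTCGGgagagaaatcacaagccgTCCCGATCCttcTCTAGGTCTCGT
The windows hold 10 such pairs in SRRM2, 12 in SON, 12 in SRSF7 and 7 in SRSF3. Over whole proteins the SR proteins had a median of 17.6 arginine-serine pairs per 100 residues and the members a median of 1.13, against 0.781 over 13448 genes with a coding sequence. Coding lengths ran from 258 bases in SF3B5 to 8256 in SRRM2 with a median of 1040 over the members, against 1440 over all genes.

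Total counts were 15341973 to 25675182 in the PEG libraries and 23101982 to 46939993 in the others. Levels of the members are given in CPM, each count divided by the library's total and scaled by the TMM method. The TMM factors were 0.7887 to 0.8696 with PEG and 0.9665 to 1.095 in the other libraries. CPM is thus a relative level and not a plain share of the counts. The amount of RNA in a pellet is unknown, so that more of a mRNA and less of the rest cannot be told apart. Among the input libraries, replicate 1 had the highest level of 51 of the 61 members, and outside PEG replicate 1 stood apart from the other numbers, with a chi-square per degree of freedom over genes of 67.9 to 99.8 against it and 4.97 to 9.68 between replicates 2 and 3. Same-numbered libraries deviated together, so that a second fit blocked on the replicate number (the block) is quoted wherever it changes a call. Replicates 2 and 3 also deviated together across numbers, in some groups as much as within a number. Input 2 correlated at 0.653 with mock 3 and at 0.637 with mock 2. The pairing of these numbers is thus less sure. The RNA sets and marker genes below are given in plain CPM, counts divided by the library's total without the TMM factor. The factors were lowest with PEG, so that plain CPM puts PEG lower beside input than the members' CPM would. The mitochondrially encoded mRNAs summed to 3630 to 4650 plain CPM in input. They summed to 9450 to 14200 in the mock, dsRNA and silvestrol pellets and 4650 to 7080 with PEG. MALAT1, NEAT1, KCNQ1OT1 and MIAT are nuclear-retained RNAs. They summed to 790 to 1260 plain CPM in input, 995 to 2150 in those 3 pellets and 595 to 1150 with PEG. The part of either set in the results was not tested. Of 7 mesenchymal markers of U2OS cells 5 passed the filter, VIM, RUNX2, CDH11, SPARC and COL1A1, while COL1A2 and TWIST1 did not. Of 7 markers of other cells 1 passed, the epithelial EPCAM at 5.16 to 14.3 plain CPM. CD3E and ALB had at most 2 counts in any library.

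Relative to input, 26 to 29 of the 61 members were called lower in the mock, dsRNA and silvestrol pellets, and 25 were called higher in the PEG pellet. In mock, 27 members were called lower and 7 higher (edgeR quasi-likelihood test, adjusted p under 0.05), where 15.8% and 17.6% of all genes were called, with a median log2 fold change of -0.45 over the members and 0.0 over all genes. With the replicate block, 41 were called lower and 9 higher, against 30.1% and 32.5% of all genes. With dsRNA, 26 were called lower and 6 higher, against 19.6% and 21.1% of all genes, and 36 and 8 with the block, against 29.1% and 31.0%. With silvestrol, 29 were called lower and 7 higher, against 18.1% and 19.4%, and 38 and 8 with the block, against 28.7% and 30.8%. With PEG the split was turned: 25 members were called higher and 6 lower, against 25.5% and 25.9% of all genes, with a median log2 fold change of 0.33. The block gave 28 and 6 there, against 28.0% and 27.8%. Scaled by library size only, the median of all genes with PEG moved by -0.35 on the log2 scale, and 17 members were called higher and 16 lower, against 14.1% and 41.5% of all genes. All 6 members called lower and 17 of the 25 called higher kept their calls under that scaling. A GC offset, which takes out the trend of each library's counts with the GC content of genes, ended 12 of the 34 calls in mock, 9 of 32 with dsRNA, 12 of 36 with silvestrol and 2 of 31 with PEG. The 4 comparisons share the 3 input libraries.

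On replicates 2 and 3 alone, a choice made after seeing the data, the members called lower and higher numbered 39 and 11 in mock (30.6% and 31.9% of all genes), 38 and 12 with dsRNA (33.2% and 33.6%), 39 and 13 with silvestrol (31.9% and 32.9%) and 9 and 44 with PEG (35.6% and 34.9%).

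**Figure D1:**
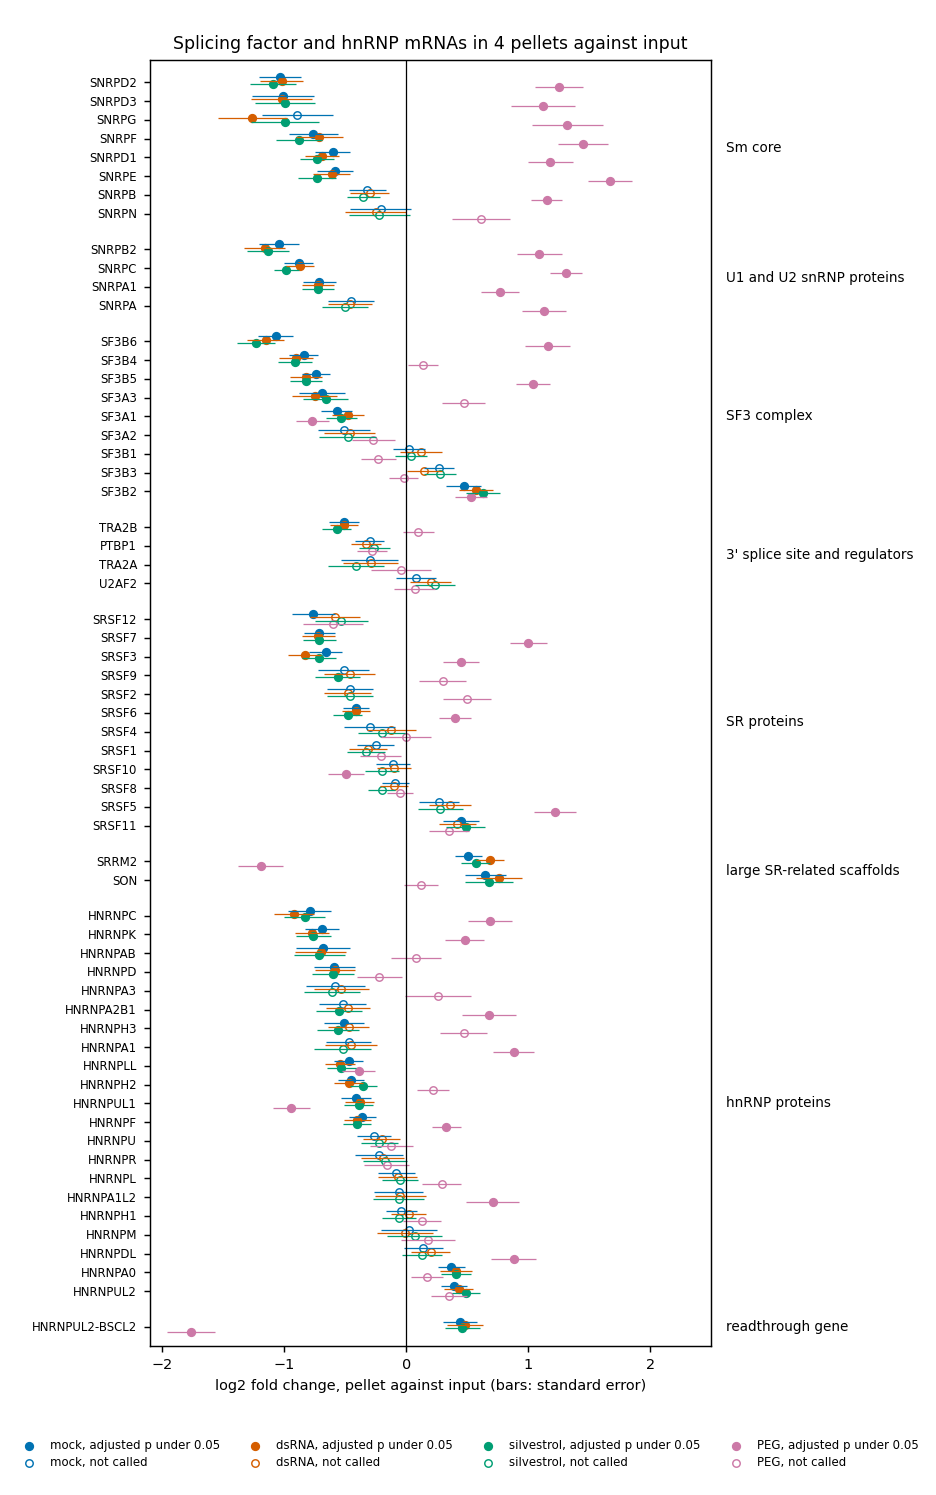
Log2 fold change of each of the 61 members in the mock, dsRNA, silvestrol and PEG pellets against input, grouped by role, with bars for the standard error and filled points for an adjusted p under 0.05. The Sm core lies left of 0 in 3 pellets and between 0.61 and 1.67 with PEG, and SRRM2 lies on the opposite sides.

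The mock, dsRNA and silvestrol comparisons share their input libraries, so that calls can repeat for any gene. The share of all genes called alike in each of them is not given here. In the 3 pellets without PEG the same 25 members were called lower each time and the same 6 higher each time, while 24 were called in none of the 3. The 6 were HNRNPA0, HNRNPUL2, HNRNPUL2-BSCL2, SF3B2, SON and SRRM2. Of the 25, 16 were called higher with PEG, 3 were called lower there too (HNRNPLL, HNRNPUL1 and SF3A1) and 6 were not called. The calls without PEG rest on few libraries: without mock replicate 2 or 3, the members called lower in mock numbered 11 or 8, where 7.4% and 6.12% of all genes were called lower, and the members called higher were 1, 0, 1 and 0 without input replicate 2, input replicate 3, mock replicate 2 and mock replicate 3, against 10.2%, 10.5%, 10.1% and 8.04% of all genes. Without dsRNA replicate 2 or 3, 15 or 14 were called lower, against 11.8% and 11.9% of all genes, and without silvestrol replicate 2 or 3, 16 in each case, against 10.3% and 11.1%. The members called higher fell to between 1 and 3 without replicate 2 or 3 of input, dsRNA or silvestrol, where 12.9% to 15.4% of all genes were called higher. With PEG, leaving out input replicate 1 gave 43 members called higher, against 31.3% of all genes. Without each library in turn, 8 of the 34 calls in mock held every time, 15 of 32 with dsRNA, 16 of 36 with silvestrol and 24 of 31 with PEG. The share of calls over all genes that held every time is not given here, so that these counts only describe the members.

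The Sm core genes encode the ring that is put on each spliceosomal snRNA in the cytoplasm. Of their 8 mRNAs, 5 or 6 were called lower in the 3 pellets, and they had the highest median of any role with PEG. SNRPE stood at 177, 128 and 131 CPM in input replicates 1 to 3, at 97.0, 94.8 and 92.7 in mock, at 86.8, 97.4 and 93.6 with dsRNA, at 77.3, 92.1 and 88.4 with silvestrol and at 392, 479 and 484 with PEG. The PEG libraries lay above every input library and the other pellets below every one, without overlap. The log2 fold change of SNRPE was -0.58 (SE 0.147, adjusted p 0.0208) in mock, -0.61 with dsRNA (adjusted p 0.0152), -0.73 with silvestrol (adjusted p 0.0097) and 1.67 (SE 0.179, adjusted p 0.000293) with PEG, a 3.19-fold higher level. The level of SNRPD2 was 281, 194 and 187 CPM in the input libraries, 109, 106 and 103 in the mock pellets, 108, 103 and 105 in the dsRNA pellets, 88.6, 101 and 115 in the silvestrol pellets and 472, 572 and 491 in the PEG pellets. SNRPD2 fell by 1.03 (SE 0.172), 1.02 and 1.09 on the log2 scale in mock, dsRNA and silvestrol and rose by 1.25 with PEG, and kept these calls without any one library.

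SNRPD3, SNRPF and SNRPD1 followed with -1.01, -0.76 and -0.60 in mock, and 1.12, 1.45 and 1.18 with PEG, all called (adjusted p 0.0209, 0.0251 and 0.018 in mock). The GC offset ended the calls of SNRPF in mock (-0.53) and dsRNA (-0.43). SNRPB, whose product sits in the ring as SmB, had -0.32, -0.30 and -0.35 in the 3 pellets, none called without the block (adjusted p 0.0112 in mock and 0.0254 with silvestrol with it), and rose by 1.15 with PEG. SNRPN, its relative SmN, which is known from brain, had -0.21, -0.25 and -0.22, and 0.61 with PEG, where its adjusted p was 0.0576 without and 0.0144 with the block. Of the summed exons of SNRPN, 39.2% overlap other genes. In all, 5 of the 8 Sm core genes were called lower in mock, 6 with dsRNA and 6 with silvestrol, and 7 were called higher with PEG, with median log2 fold changes of -0.68, -0.70, -0.81 and 1.22. As a share of all counts the 8 together took 0.126% to 0.159% in input, 0.0846% to 0.0981% in the 3 pellets and 0.249% to 0.266% with PEG.

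SNRPG had the largest input spread of the Sm genes. Input held 361, 172 and 178 CPM of SNRPG, against 141, 127 and 107 in mock, 101, 95.0 and 92.6 with dsRNA, 115, 122 and 113 with silvestrol and 534, 595 and 609 with PEG. Input replicate 1 was far above the other input libraries, and all pellets without PEG lay below all inputs. Its log2 fold change was -0.89 (SE 0.294) in mock, with an adjusted p of 0.0515 and of 4.29e-06 with the block, -1.26 with dsRNA (SE 0.281, adjusted p 0.00975), -0.99 with silvestrol (adjusted p 0.0256, not called with the GC offset, at -0.71) and 1.32 with PEG (adjusted p 0.00524). GENCODE 29 lists 20 pseudogenes named after SNRPG, 9 after SNRPE and 4 after SNRPF, so that some of their reads could fall to copies.

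Of the 4 mRNAs of U1 and U2 snRNP proteins, 3 were called lower in each of the 3 pellets and all 4 higher with PEG. SNRPC, a U1 protein, helps the U1 snRNP at the start of the intron. SNRPC stood at 102, 98.4 and 102 CPM in input replicates 1 to 3, at 60.8, 52.3 and 47.3 in mock, at 57.8, 48.8 and 53.6 with dsRNA, at 51.3, 46.9 and 52.0 with silvestrol and at 212, 239 and 275 with PEG. No pellet library overlapped an input library. SNRPC fell by 0.88 (SE 0.121, adjusted p 0.00384), 0.87 and 0.98 on the log2 scale in mock, dsRNA and silvestrol and rose by 1.31 with PEG (adjusted p 0.000261). SNRPB2 and SNRPA1, which encode proteins of the U2 snRNP, had -1.04 and -0.71 in mock, -1.16 and -0.72 with dsRNA, -1.13 and -0.72 with silvestrol, and 1.09 and 0.77 with PEG, all called. SNRPA, another U1 protein, was called only with PEG, at 1.13 (adjusted p 0.00128), and in mock, dsRNA and silvestrol had -0.45, -0.46 and -0.50, with adjusted p 0.000244, 0.00728 and 0.00142 with the block.

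Among the SF3A and SF3B subunits, those with the shortest coding sequences, SF3B5 and SF3B6, fell without PEG and rose with it. SF3B6, which touches the branch point, is encoded in 375 bases. The level of SF3B6 was 188, 138 and 140 CPM in the input libraries, 72.1, 72.9 and 71.4 in the mock pellets, 63.1, 72.3 and 68.2 in the dsRNA pellets, 58.9, 65.9 and 68.8 in the silvestrol pellets and 278, 376 and 362 in the PEG pellets. The 3 pellets lay far below input and the PEG pellet above it. SF3B6 fell by 1.07 (SE 0.143, adjusted p 0.00361), 1.15 and 1.23 and rose by 1.16 with PEG (adjusted p 0.00115), and SF3B5 fell by 0.74, 0.82 and 0.82 and rose by 1.04. SF3B4 and SF3A3 fell by 0.84 and 0.69 in mock, with 0.14 and 0.47 with PEG, the latter at an adjusted p of 0.0518 and of 0.0228 with the block. Every PEG library of SF3A3 was above every input library. SF3A2, which joins SF3A3 and SF3A1 in the SF3A complex, had -0.51, -0.46 and -0.48 and was called lower with the block only (adjusted p 6.99e-05, 0.00814 and 0.00175), and had -0.27 with PEG.

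SF3A1 was lower in all 4 pellets, by 0.57 (SE 0.129, adjusted p 0.015), 0.48, 0.53 and, with PEG, 0.77 (adjusted p 0.0018) on the log2 scale. SF3B2 went the other way in all 4. Input held 297, 256 and 268 CPM of SF3B2, against 305, 403 and 401 in mock, 343, 439 and 403 with dsRNA, 359, 430 and 455 with silvestrol and 358, 385 and 407 with PEG. Every pellet library was above every input library. The log2 fold change was 0.47 (SE 0.144, adjusted p 0.0407), 0.57 (adjusted p 0.0136), 0.63 (adjusted p 0.0105) and 0.53 (adjusted p 0.00857), and in mock and dsRNA the call was lost on leaving out any of 4 libraries. Scaled by library size only, SF3B2 had 0.19 with PEG and was not called. SF3B1, the subunit often mutated in blood cancers, had 0.02, 0.12, 0.04 and -0.23, and SF3B3 had 0.27, 0.15, 0.28 and -0.02, neither called without the block, which called SF3B3 higher in mock (adjusted p 0.00969) and silvestrol (adjusted p 0.0341). Of the 9 SF3 genes, 5 were called lower and 1 higher in each of mock, dsRNA and silvestrol, and 3 higher and 1 lower with PEG.

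U2AF2 binds the pyrimidine tract before the end of an intron, PTBP1 competes for such tracts, and TRA2A and TRA2B activate exons through purine-rich elements. TRA2B stood at 331, 283 and 312 CPM in input replicates 1 to 3, at 223, 219 and 190 in mock, at 215, 208 and 210 with dsRNA, at 200, 212 and 198 with silvestrol and at 310, 317 and 338 with PEG. The 3 pellets lay below input, and the PEG libraries overlapped it. TRA2B fell by 0.51 (SE 0.121, adjusted p 0.017), 0.51 and 0.57 and had 0.10 with PEG. With the GC offset the 3 calls were lost, at -0.31, -0.24 and -0.32. PTBP1 had -0.30 (adjusted p 0.0919), -0.33 and -0.26, which were called with the block only (adjusted p 0.00349, 0.0135 and 0.046), and -0.28 with PEG. The level of U2AF2 was 403, 283 and 310 CPM in the input libraries, 389, 325 and 310 in the mock pellets, 417, 352 and 346 in the dsRNA pellets, 424, 369 and 362 in the silvestrol pellets and 346, 316 and 354 in the PEG pellets. U2AF2 overlapped input in every pellet, with log2 fold changes of 0.08, 0.20, 0.24 and 0.07, and TRA2A had -0.30, -0.29, -0.41 and -0.04, none of them called.

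SR proteins bind exons and recruit the machinery to nearby splice sites. Their 12 mRNAs did not all go one way. Input held 212, 170 and 175 CPM of SRSF7, against 110, 116 and 105 in mock, 103, 120 and 107 with dsRNA, 99.0, 119 and 115 with silvestrol and 314, 384 and 388 with PEG. SRSF7 was below input in all 9 libraries of the 3 pellets and above it with PEG. It fell by 0.71 (SE 0.125, adjusted p 0.00663), 0.72 and 0.71 on the log2 scale and rose by 1.00 with PEG (SE 0.153, adjusted p 0.00101). SRSF3, the smallest SR protein of this set, fell by 0.66, 0.83 and 0.71 and rose by 0.45 with PEG (adjusted p 0.0315), and SRSF6 fell by 0.41, 0.41 and 0.48 and rose by 0.40 (adjusted p 0.0301). Without any one of 4 libraries the PEG calls of SRSF3 and of SRSF6 were lost, and scaled by library size only neither was called. SRSF6 was called in none of the other 3 pellets with the GC offset (-0.20, -0.14 and -0.22).

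SRSF5 stood at 341, 379 and 398 CPM in input replicates 1 to 3, at 341, 492 and 485 in mock, at 354, 508 and 534 with dsRNA, at 325, 492 and 507 with silvestrol and at 680, 783 and 1060 with PEG. Replicate 1 lay below replicates 2 and 3 in every group, and only the PEG libraries stood clear of input. SRSF5 rose by 1.22 with PEG (SE 0.174, adjusted p 0.000785), a 2.33-fold higher level, and had 0.27, 0.36 and 0.28 in the other pellets, called with the block only in mock (adjusted p 0.0176) and with dsRNA (adjusted p 0.0215). SRSF11 was called higher in mock (0.45, adjusted p 0.0455) and silvestrol (0.49, adjusted p 0.0431), had 0.42 with dsRNA (adjusted p 0.0596, and 0.0169 with the block) and 0.35 with PEG. Its mock call was lost without any one of 5 libraries. SRSF10, a splicing repressor when dephosphorylated, fell by 0.49 with PEG (adjusted p 0.0222, and -0.18 with the GC offset, not called) and had -0.11, -0.10 and -0.20 elsewhere. SRSF12, at 1.39 to 3.35 CPM over all libraries, was called lower in mock at -0.76 (adjusted p 0.0169, not called with the GC offset, at -0.55) and had -0.58, -0.53 and -0.60 in the other pellets, of which dsRNA and silvestrol were called with the block (adjusted p 0.0166 and 0.0244). SRSF9 was called lower with silvestrol at -0.56 (adjusted p 0.0465, and -0.32 with the GC offset, not called) and had -0.51 and -0.46 in mock and dsRNA, called with the block only (adjusted p 6.26e-05 and 0.00288).

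SRSF2, whose summed exons overlap other genes over 36.7%, had -0.46, -0.48 and -0.46, called with the block only (adjusted p 0.000867, 0.0074 and 0.0114), and 0.50 with PEG (adjusted p 0.0598, and 0.0385 with the block). SRSF1 had -0.25, -0.31, -0.33 and -0.21, SRSF4 had -0.30, -0.12, -0.20 and 0.00, and SRSF8 had -0.09, -0.10, -0.20 and -0.05. None of these 3 was called without the block, which called SRSF1 lower in mock (adjusted p 0.033) and silvestrol (adjusted p 0.0353) and SRSF4 lower in mock (adjusted p 0.0124). In all, 4 SR genes were called lower and 1 higher in mock, 3 and 0 with dsRNA, 4 and 1 with silvestrol, and 1 and 4 with PEG.

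SON and SRRM2 are large proteins with arginine-serine repeats that build nuclear speckles, where splicing factors gather. The level of SRRM2 was 430, 476 and 450 CPM in the input libraries, 591, 642 and 654 in the mock pellets, 717, 704 and 705 in the dsRNA pellets, 663, 658 and 646 in the silvestrol pellets and 245, 147 and 183 in the PEG pellets. The 3 pellets lay above input and the PEG pellet below it, with no overlap. SRRM2 rose by 0.51 (SE 0.111, adjusted p 0.0128), 0.69 (adjusted p 0.00381) and 0.57 (adjusted p 0.00859) on the log2 scale and fell by 1.19 with PEG (SE 0.185, adjusted p 0.00109). The GC offset ended the SRRM2 calls in mock (0.30) and silvestrol (0.33), while dsRNA, at 0.43, stayed called. Input held 236, 197 and 189 CPM of SON, against 384, 267 and 305 in mock, 440, 292 and 295 with dsRNA, 425, 266 and 285 with silvestrol and 207, 220 and 229 with PEG. Replicate 1 was the highest in mock, dsRNA and silvestrol, and each of these libraries was above each input. SON rose by 0.65 (SE 0.167, adjusted p 0.022), 0.76 (adjusted p 0.0155) and 0.68 (adjusted p 0.0298), and had 0.12 with PEG, where the libraries overlapped input.

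**Figure D2:**
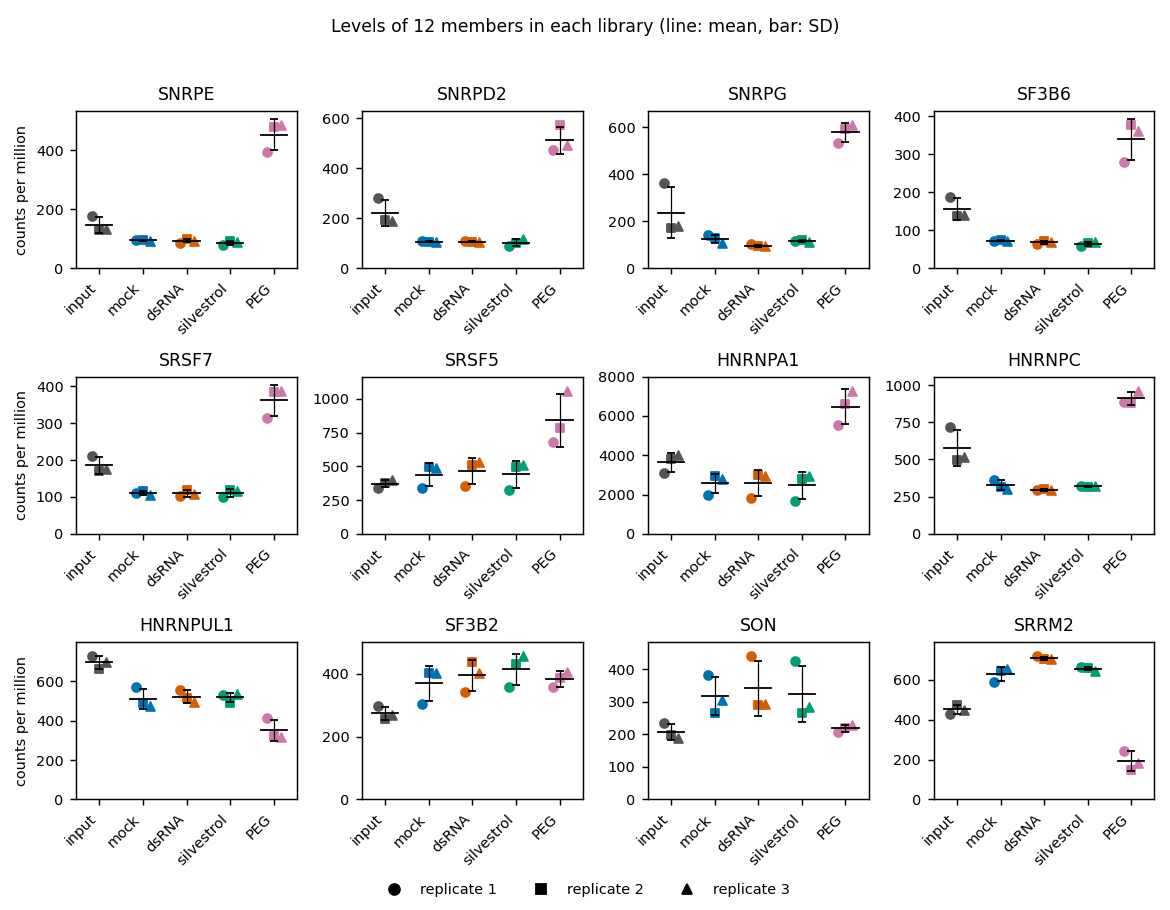
Level in CPM of 12 members in each of the 15 libraries, with the mean and SD of each group of 3 and a symbol for the replicate number. SNRPE, SNRPD2, SNRPG, SF3B6, SRSF7, HNRNPA1 and HNRNPC are lowest in the mock, dsRNA and silvestrol pellets and highest with PEG, and SRRM2 has the reverse order, from 147 to 245 with PEG to 704 to 717 with dsRNA.

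hnRNPs coat nascent RNA, and many move between nucleus and cytoplasm. HNRNPA1, which blocks splice sites and was the most abundant member, made up 9.7% to 18% of the members' counts in the libraries without PEG and 19.0% to 22.2% with it. HNRNPA1 stood at 3100, 3790 and 4020 CPM in input replicates 1 to 3, at 1990, 2920 and 2780 in mock, at 1810, 2980 and 2960 with dsRNA, at 1680, 2810 and 2940 with silvestrol and at 5530, 6610 and 7280 with PEG. Replicate 1 was the lowest in each group; the PEG libraries stood above all inputs and the other pellets below. HNRNPA1 had -0.47 (SE 0.185, adjusted p 0.0864), -0.45 (adjusted p 0.125) and -0.52 (adjusted p 0.116), called lower with the block (adjusted p 0.000145, 0.00458 and 0.00459), and rose by 0.88 with PEG (SE 0.17, adjusted p 0.00291). GENCODE 29 lists 75 pseudogenes named after HNRNPA1, the most of any member. HNRNPA1L2, a relative of it at 3.02 to 6.49 CPM, had -0.06, -0.05 and -0.06 and rose by 0.71 with PEG (adjusted p 0.0227), a call lost without any of 4 libraries and, at 0.37, with library size only. Reads shared by the pair could have been assigned to either gene.

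In the 3 pellets without PEG, HNRNPC, which binds uridine tracts, had the lowest log2 fold change of the hnRNPs. The level of HNRNPC was 718, 495 and 519 CPM in the input libraries, 365, 312 and 301 in the mock pellets, 294, 304 and 293 in the dsRNA pellets, 318, 316 and 321 in the silvestrol pellets and 888, 880 and 961 in the PEG pellets. The mock pellets overlapped both the dsRNA and the silvestrol pellets, while every dsRNA library lay below every silvestrol library. All of these pellets lay below input, and the PEG pellets lay above it. HNRNPC fell by 0.79 (SE 0.174, adjusted p 0.0134), 0.92 and 0.83 and rose by 0.69 with PEG (adjusted p 0.0113). HNRNPK, which binds cytidine-rich RNA, fell by 0.69, 0.77 and 0.76 and rose by 0.48 with PEG (adjusted p 0.0307), and HNRNPF fell by 0.36, 0.40 and 0.40 and rose by 0.33 (adjusted p 0.0498, and 0.0546 with the block). Scaled by library size only, the PEG calls of HNRNPC (0.36), HNRNPK (0.14) and HNRNPF (-0.02) were lost. The HNRNPK call was also lost without any one of 4 libraries, and the HNRNPF call without any one of 5. With the GC offset HNRNPF was not called in the other 3 pellets, at -0.27, -0.30 and -0.31, nor in mock with library size only, at -0.30. HNRNPAB, HNRNPD and HNRNPH2 fell by 0.68, 0.59 and 0.45 in mock and had 0.08, -0.22 and 0.22 with PEG. The GC offset ended the calls of HNRNPD and HNRNPH2, with -0.36 and -0.26 in mock. HNRNPA2B1 was called lower with silvestrol only (-0.55, adjusted p 0.0489), with -0.52 and -0.48 in mock and dsRNA, called with the block (adjusted p 0.000109 and 0.00921), and rose by 0.68 with PEG (adjusted p 0.03), a call lost without any of 4 libraries and, at 0.35, with library size only. The silvestrol call was lost with library size only (-0.49) and with the GC offset (-0.28). HNRNPH3 was called lower in mock (-0.51) and silvestrol (-0.56) and had -0.47 with dsRNA and 0.47 with PEG, called with the block (adjusted p 0.0204 and 0.0474). The GC offset left -0.33 in mock and -0.35 with silvestrol for HNRNPH3, neither called, and library size only gave -0.44 in mock, not called. HNRNPA3 had -0.58, -0.53 and -0.61, called with the block only (adjusted p 9.92e-05, 0.0199 and 0.0108).

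Other hnRNP mRNAs left this pattern. Input held 726, 664 and 697 CPM of HNRNPUL1, against 569, 489 and 477 in mock, 557, 513 and 494 with dsRNA, 531, 491 and 534 with silvestrol and 413, 322 and 317 with PEG. Every pellet library lay below every input library, and the mRNA fell by 0.41 (SE 0.121, adjusted p 0.0363), 0.38 and 0.39 on the log2 scale in the 3 pellets and by 0.94 with PEG (SE 0.15, adjusted p 0.00121). HNRNPLL, which regulates CD45 splicing in T cells, fell by 0.47, 0.54, 0.53 and, with PEG, 0.39 (adjusted p 0.0429). None of the 4 was called with the GC offset, at -0.25, -0.27, -0.26 and -0.05, and the PEG call was lost without input replicate 2, input replicate 3 or PEG replicate 2. HNRNPDL rose by 0.88 with PEG (adjusted p 0.00454), with 0.14, 0.20 and 0.13 elsewhere. HNRNPA0 rose by 0.37 (adjusted p 0.0395), 0.41 and 0.41 and had 0.17 with PEG. Its call was lost without any one of 5 libraries in mock and any one of 6 with dsRNA. HNRNPU, HNRNPR, HNRNPL, HNRNPH1 and HNRNPM lay between -0.26 and 0.07 in the 3 pellets and between -0.16 and 0.29 with PEG, not called without the block, which called HNRNPU (adjusted p 0.0294) and HNRNPR (adjusted p 0.0285) lower in mock.

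HNRNPUL2, whose summed exons overlap other genes over 44.5%, rose by 0.39 (adjusted p 0.0285), 0.43 and 0.49 and had 0.35 with PEG (adjusted p 0.0755). With the GC offset it had 0.33 and 0.35 in mock and dsRNA, not called. Each of these calls was also lost without any one of 4 libraries. HNRNPUL2-BSCL2 is annotated as a readthrough of HNRNPUL2 into its neighbour BSCL2 on chromosome 11, and 99.1% of its exons overlap other genes, so that its counts depend on how shared reads were assigned. HNRNPUL2-BSCL2 stood at 17.9, 13.3 and 16.6 CPM in input replicates 1 to 3, at 21.8, 20.8 and 20.4 in mock, at 19.7, 21.9 and 23.0 with dsRNA, at 21.8, 22.1 and 20.2 with silvestrol and at 5.18, 3.61 and 4.80 with PEG. Every pellet library without PEG lay above input and every PEG library below it. HNRNPUL2-BSCL2 rose by 0.44 (SE 0.139, adjusted p 0.0453), 0.48 and 0.46 and fell by 1.76 with PEG (SE 0.198, adjusted p 0.000341), the lowest value of any member. The 3 calls without PEG were lost with the GC offset, which gave 0.18 in each. They were also lost without any one of 5 libraries in mock, 4 with dsRNA and 5 with silvestrol. Over the 21 hnRNP genes, 9 were called lower and 2 higher in mock, 8 and 2 with dsRNA, 10 and 2 with silvestrol, and 2 and 7 with PEG.

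Length, which the choice of members did not use, ran along with the changes. Over the 61 members, the Spearman correlation of coding length with the log2 fold change was 0.631 in mock, 0.640 with dsRNA, 0.670 with silvestrol and -0.662 with PEG, against 0.428, 0.428, 0.433 and -0.454 over 13448 genes. All members are protein-coding, whereas 13448 of the 16612 genes tested had a coding sequence. With the summed exons the members gave 0.544, 0.546, 0.559 and -0.534, against 0.183, 0.180, 0.182 and -0.482 over all 16612 genes. These are descriptions across genes, which share libraries and depth and are not replicates. Of the 20 members with the shortest coding sequences (258 to 786 bases), 13 were called lower and 0 higher in mock, and 1 lower and 14 higher with PEG, with medians of -0.71 and 1.06. Of the 20 with the longest (1416 to 8256 bases), 4 were called lower and 6 higher in mock, and 5 lower and 1 higher with PEG, with medians of -0.01 and -0.01.

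Some members lay outside the middle 50% of genes of like length, a range that leaves out 50% of genes by its definition. Whether members lay outside it more often than other genes was not tested. Over all 1363 genes with coding sequences of 75 to 567 bases, the median log2 fold change was -0.48 in mock and 0.64 with PEG, and the middle 50% lay between -0.76 and -0.13 and between 0.04 and 1.14. Of the Sm core genes, SNRPE, SNRPF, SNRPG, SNRPD2 and SNRPD1 lay above that range with PEG, and SNRPD2, SNRPD3 and SNRPG below it in mock. SF3B6 and SNRPC, of the same class, also lay above it with PEG, at 1.16 and 1.31, and below it in mock, at -1.07 and -0.88. SF3B5 and SRSF3 lay within it in both. In the class of 3615 bases and longer, to which SRRM2, SON, SF3B1 and SF3B3 belong, the medians were 0.42 in mock and -0.60 with PEG. With PEG, SON had 0.12, SF3B3 -0.02 and SF3B1 -0.23, all above the upper quartile of -0.28. SRRM2 had -1.19 there, below the lower quartile of -0.87. In mock, SF3B1 had 0.02, below the lower quartile of 0.16. GC content showed less over the members, with correlations of 0.141, 0.149, 0.145 and -0.037, against 0.407, 0.449, 0.443 and 0.299 over 16529 genes; members had a median GC content of 43.0% against 48.8% over all genes. Members rich in arginine-serine pairs fell on both sides: in mock SRSF7, with 22.3 pairs per 100 residues, fell by 0.71, SRSF5, with 19.1, had 0.27, and SRRM2, with 12, rose by 0.51.

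**Figure D3:**
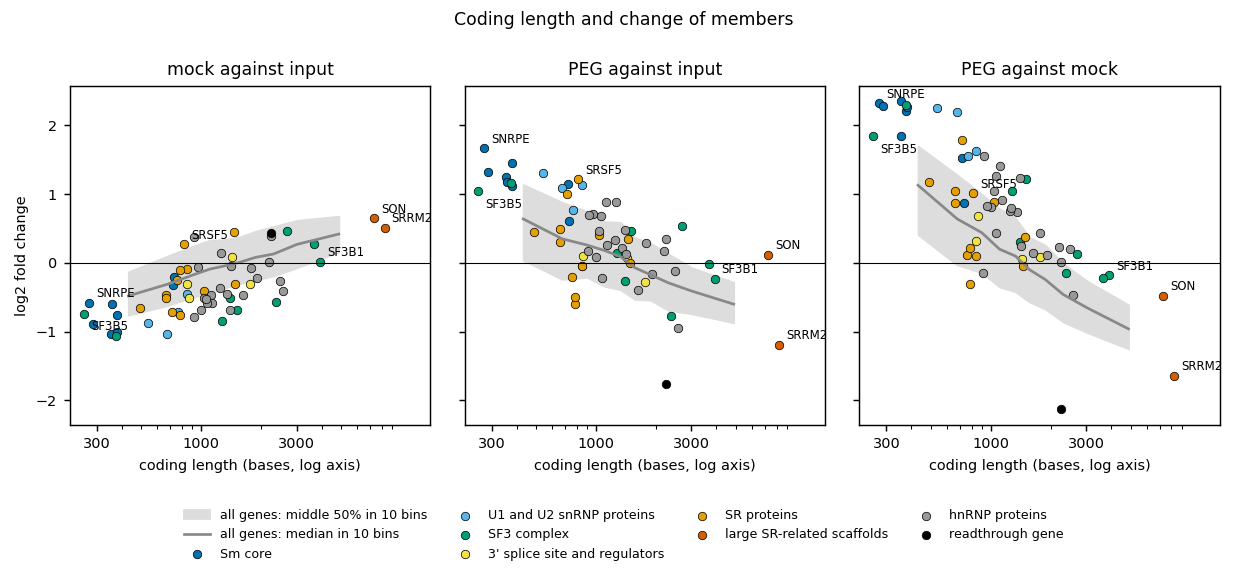
Log2 fold change of the 61 members against coding length (log axis) in mock against input, PEG against input and PEG against mock, coloured by role, over the median and middle 50% of all genes in 10 bins of coding length. Short members lie low in mock and high with PEG, and SRRM2, at 8256 bases, has the reverse.

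Among the treated pellets, dsRNA and silvestrol were set against mock to ask what the treatments added to incubation and pelleting without treatment. No member was called in either comparison, in which 0.0% of all genes were called in each direction. With edgeR, 374 of all genes and 1 member had an unadjusted p under 0.05 with dsRNA and 35 genes and 0 members with silvestrol, and DESeq2 called 0 members in both. The log2 fold changes lay between -0.38 and 0.18 with dsRNA and between -0.16 and 0.24 with silvestrol, and the libraries of 56 of the 61 members overlapped in each. The share of all genes with overlapping libraries is not given here, so that this count only describes the members. With the block, SNRPG was called lower with dsRNA (-0.37, adjusted p 0.000141), where 2.65% of all genes were called lower and 0.15% higher, and no member was called with silvestrol, where 0.012% were called higher and 0.0% lower. SNRPG stood at 141, 127 and 107 CPM in mock and at 101, 95.0 and 92.6 with dsRNA, all below mock. Its log2 fold change without the block was -0.38 with an SE of 0.123 and an adjusted p of 1.0. SON and SRRM2, whose levels in the pellets were above input, had 0.10 and 0.17 with dsRNA and 0.03 and 0.06 with silvestrol.

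PEG against mock gave the widest changes among the members. Of the 61, 38 were called higher and 5 lower, against 31.3% and 32.2% of all genes, with a median log2 fold change of 0.80 over the members and -0.03 over all genes. Scaled by library size only, the median of all genes moved to -0.49, and 31 members were called higher and 16 lower, against 18.8% and 49.8% of all genes. All 8 Sm core genes rose, from 0.87 for SNRPN to 2.35 for SNRPD2, which is 5.09-fold (SE 0.131 on the log2 scale, adjusted p 5.7e-06), and all 8 stayed called under that scaling. SNRPE rose by 2.32, SNRPG by 2.28, SNRPF by 2.27, SNRPD3 by 2.21, SNRPD1 by 1.85 and SNRPB by 1.53. The U1 and U2 proteins rose by 1.55 to 2.25.

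Of the SF3 genes, SF3B6, SF3B5, SF3A3 and SF3B4 rose against mock, by 2.30, 1.84, 1.22 and 1.04, while SF3B1, SF3B3 and SF3A1 had -0.18, -0.22 and -0.14 and SF3B2 had 0.13. SF3A2 had 0.30, called with the block only (adjusted p 0.058 without and 0.032 with it). Of the SR genes, SRSF7, SRSF3, SRSF2, SRSF5, SRSF6 and SRSF9 rose, by 1.79, 1.17, 1.04, 1.01, 0.88 and 0.87. SRSF4 rose by 0.37, with -0.09 when scaled by library size only. TRA2B rose by 0.68 (adjusted p 0.000878), and TRA2A by 0.32 (adjusted p 0.0414), with 0.22 and -0.14 when scaled by library size only, neither called. Of the 21 hnRNP genes 13 rose, led by HNRNPC at 1.55, HNRNPA1 at 1.41 and HNRNPA2B1 at 1.27, and HNRNPD and HNRNPL, at 0.44 and 0.43, had -0.03 and -0.03 when scaled by library size only. HNRNPA3, at 0.91, and HNRNPA1L2, at 0.83, also lost their calls under that scaling, with 0.45 and 0.36. With the GC offset the calls of HNRNPL (0.28) and SRSF10 (-0.27) were lost. Without PEG replicate 1, 2 or 3, the members called lower numbered 3, 2 and 2, against 30.2%, 25.2% and 25.7% of all genes. The 5 that fell were HNRNPUL2-BSCL2 (-2.13), SRRM2 (-1.64, adjusted p 4.45e-05), SON (-0.48, adjusted p 0.0219), HNRNPUL1 (-0.47, adjusted p 0.0212) and SRSF10 (-0.30, adjusted p 0.0372), all 5 of them also with library size only. The correlation of coding length with this change was -0.766 over the members and -0.599 over 13448 genes.

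**Figure D4:**
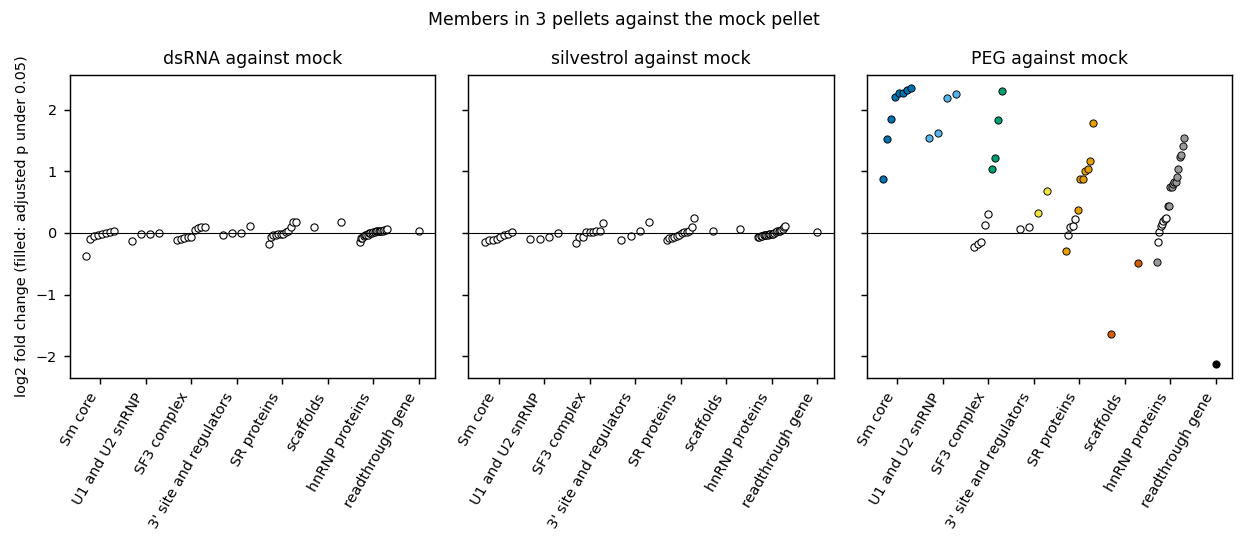
Log2 fold change of the members in the dsRNA, silvestrol and PEG pellets against mock, by role, filled where the adjusted p is under 0.05. No point is filled with dsRNA or silvestrol, where the values stay between -0.38 and 0.24, and with PEG the roles spread from -2.13 to 2.35.

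For comparison, 103 other splicing genes were followed, among them the LSM proteins, PRPF factors and RBM proteins. In mock 26 (25.2%) were called lower and 14 (13.6%) higher, against 15.8% and 17.6% of all genes, with a median of -0.15. With dsRNA 28 (27.2%) and 19 (18.4%) were called lower and higher, against 19.6% and 21.1%, and with silvestrol 25 (24.3%) and 14 (13.6%), against 18.1% and 19.4%. With PEG 22 (21.4%) were called lower and 36 (35.0%) higher, against 25.9% and 25.5%, with a median of 0.18. The lowest in mock were LSM3 (-1.50, adjusted p 0.00783), a subunit of the ring around U6 snRNA, BCAS2 (-1.33) and BUD31 (-0.97), and the highest were RBM25 (1.16, adjusted p 0.0146), RBM5 (0.89) and PRPF4B (0.81). LSM3, BCAS2, BUD31, RBM5 and RBM25 were also among the 3 lowest and 3 highest with dsRNA and silvestrol, with LUC7L3 at 0.76 taking the place of PRPF4B with silvestrol. With PEG, LSM7 (1.99, adjusted p 0.000217), SNRNP35 (1.35) and LSM8 (1.26) were highest and MBNL2 (-1.90), MBNL1 (-1.88) and MATR3 (-1.48) lowest.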

How the data were processed

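Poly(A) RNA of 15 libraries, 3 biological replicates in each of 5 conditions, was sequenced from cytosolic extract of U2OS cells and from pellets made from it. The deposited values are raw counts per gene and library: per the submitters' processing notes, reads were trimmed with Trimmomatic 0.36, aligned to GRCh38 with STAR 2.5.2b and counted by the authors with featureCounts of Subread 1.5.2. The annotation release, strand setting and treatment of reads with several matches are not given in the sources used here. Symbols, coding sequences and gene types came from GENCODE 29, in which 56898 of the 57500 gene identifiers were found, 54784 with the same start and end.

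Genes that reached 10 counts in 2 or more replicates of every condition were kept (16612). For each of 7 comparisons the 6 libraries concerned were fitted with edgeR 4.0.16 in R 4.3.3 (TMM, quasi-likelihood F test, prior count 2, Benjamini-Hochberg over all 16612 genes), and a gene was called at an adjusted p under 0.05. The study's methods name DESeq2, which (version 1.42.0) was an alternative. The edgeR step was tested on simulated data. Deviations from the group means correlated at 0.144 to 0.896 between same-numbered libraries and at -0.808 to 0.653 between different numbers, and pairing by number was inferred from this check, since the labels do not say what a number shares. The check sets replicate 1 apart more clearly than replicates 2 and 3 from each other. Other alternatives were DESeq2 size factors, library size only, other filters, all groups in 1 fit, a GC offset (span 0.3), thinned libraries, leaving out each library and, added after seeing the data, replicates 2 and 3 alone and coding length.

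Totals ran from 15341973 to 46939993 counts. The members and gene lists were chosen with earlier results of these data known. Genes were named by role, by the ends of each comparison and by level and length, and values of nearly all members are given. 1 sequence is not reported here.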

Additional observations from a re-analysis of the deposited data

How the results depend on the processing

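In the comparisons with input, library size only turned the sign of 1 member's log2 fold change in each of mock, dsRNA and silvestrol and of 13 with PEG, and the GC offset turned 7, 7, 8 and 11. HNRNPF with PEG, at -0.02 with library size only, was the only one of these called in either fit. U2AF2 in mock had -0.33 with the replicate block and GC offset together. In PEG against input, TRA2A ranged from -0.22 without input replicate 2 to 0.33 without input replicate 1 and had 0.31 on replicates 2 and 3 alone. In PEG against mock, library size only gave -0.03 for HNRNPD, -0.03 for HNRNPL, -0.32 for HNRNPLL, -0.45 for HNRNPUL2, -0.37 for PTBP1, -0.36 for SRSF1, -0.09 for SRSF4, -0.37 for SRSF8, -0.14 for TRA2A and -0.40 for U2AF2. The cause was not tested.

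The counts of members called higher in mock were 3 with the filter in at least 1 condition, 2 with no filter, 4 with the GC offset and 11 on replicates 2 and 3 alone, and 41 were called lower with the replicate block. Among all genes, 2712 of 20855 were called higher with that filter, 2826 of 37968 with no filter and 2180 of 16529 with the GC offset. On replicates 2 and 3 alone 31.9% were called higher, and with the block 30.1% were called lower. With dsRNA, 3 were called higher with no filter, 11 with the replicate block and GC offset and 12 on replicates 2 and 3 alone. Among all genes these settings called 3606 of 37762, 5194 of 16529 and 33.6% higher. With silvestrol, 4 were called higher with the filter in at least 1 condition and 13 on replicates 2 and 3 alone, against 3110 of 20855 and 32.9% of all genes. With PEG, 16 were called lower with library size only and 44 higher on replicates 2 and 3 alone, against 41.5% and 34.9% of all genes. In PEG against mock 16 were called lower with library size only, where 49.8% of all genes were. In dsRNA against mock, 1 member was called lower with the replicate block, where 2.65% of all genes were. The block and GC offset together called 1 member lower and 1 higher, SRSF4 at 0.23. The share of all genes in that last setting is not given here. Beside the results given with the block in the text, the replicate block changed no other call that is described there.

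The median log2 fold change in mock was -0.392 with library size only, -0.315 with the GC offset and -0.31 with the replicate block and GC offset. With dsRNA it was -0.416 with library size only, -0.484 with the filter in at least 1 condition, -0.504 with no filter, -0.499 with all 5 groups in 1 fit, -0.441 with the replicate block, -0.241 with the GC offset, -0.246 with both, -0.429 thinned and -0.366 on replicates 2 and 3 alone. With silvestrol it was -0.429 with library size only, -0.519 with no filter, -0.31 with the GC offset, -0.287 with the block and GC offset and -0.377 on replicates 2 and 3 alone. With PEG it was -0.016 with library size only, 0.513 with the GC offset, 0.516 with both and 0.485 on replicates 2 and 3 alone, and in PEG against mock 0.336 with library size only, 0.705 with the GC offset and 0.705 with both. In dsRNA against mock it was 0.007 with DESeq2 and 0.007 with its size factors, -0.009 with library size only, 0.015 with the GC offset, 0.014 with both and 0.025 on replicates 2 and 3 alone, and in silvestrol against mock 0.028 on the latter.

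The correlation of length with log2 fold change over the members was 0.487 with the longest transcript, 0.237 with the span of the gene and 0.631 with coding length in mock, 0.488, 0.247 and 0.64 with dsRNA, 0.507, 0.251 and 0.67 with silvestrol, -0.249 and -0.662 with span and coding length for PEG, and -0.329 and -0.766 for PEG against mock.

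Leaving out each library in turn, the members called higher ranged from 0 to 6 in mock, 1 to 7 with dsRNA, 1 to 7 with silvestrol, 19 to 43 with PEG and 34 to 40 in PEG against mock, and those called lower from 8 to 30, 14 to 29, 16 to 33, 5 to 7 and 2 to 5. Medians ranged from -0.477 to -0.371, -0.458 to -0.356, -0.524 to -0.388, 0.251 to 0.493 and 0.717 to 0.87, from -0.044 to 0.036 in dsRNA against mock and from -0.044 to 0.009 in silvestrol against mock. The correlations with summed exons ranged from 0.52 to 0.581, 0.529 to 0.598, 0.549 to 0.596, -0.556 to -0.507 and -0.666 to -0.623.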

Other observations

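Of 183 pseudogenes named after the members, 17 passed the count filter and were left out of the results above. In the PEG pellet 7 of them were called higher and 0 lower (edgeR), against 25.5% and 25.9% of all genes, with a median log2 fold change of 0.65. In mock 0 were called higher and 3 lower, against 17.6% and 15.8% of all genes, with a median of -0.59. HNRNPA1P48, listed as protein-coding in GENCODE 29 and with 288 to 708 counts per library, had -0.51 in mock (adjusted p 0.0452) and 1.18 with PEG (adjusted p 0.000282). Reads of the parent genes that were assigned to these copies cannot be told apart from reads of the copies.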
